A study of Mus musculus with 12 samples.

Results

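This comparison set BV2 microglial cells that lack Atg5 against wild type (WT) BV2 cells when both had been given interferon gamma (IFNγ). BV2 is an immortalised line of mouse microglia, the macrophages of the brain. The groups compared were 3 libraries of Atg5 knockout (KO) cells and 3 libraries of WT cells, each after 24 h with 1 U/mL IFNγ. KO and WT cells in medium alone, 3 libraries each, served for the same comparison without the cytokine. All 4 groups share the parental line and the culture medium, the labels call each replicate an independent preparation, and they do not say how many KO clones the libraries came from. Loss of Atg5 and a difference between clones therefore cannot be told apart in the results below. Within each group the libraries are lettered A to C. The sequenced RNA was cytosolic and polyadenylated and was primed from oligo-dT, so reads lie towards the 3′ ends of transcripts. Of 46078 genes in the deposited table, 10981 reached a log2 value of 3 in 3 or more of the 12 libraries and were compared. A log2 value here is log2 of the normalised count plus 1, and a difference is the KO mean minus the WT mean on that scale with the standard error (SE) of the limma fit.

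ATG5 is part of the enzyme that attaches the ATG8 proteins (LC3 and GABARAP) to the lipid of growing autophagosome membranes, the step on which canonical autophagy, the delivery of cytoplasm to lysosomes, depends. In macrophages the same conjugation system helps IFNγ-induced GTPases to reach pathogen vacuoles, and autophagy is known to restrain several inflammatory signals. IFNγ acts through its receptor, the kinases JAK1 and JAK2 and transcription factors that bind gamma-activated sites and raise IRF1. A partly overlapping set of antiviral genes is read from interferon-stimulated response elements bound by the complex ISGF3 and by IRFs, chiefly in response to type I interferon. Microglia use these programmes to present antigen, draw T cells and restrict viruses.

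The 6 treated libraries held 4206978 to 7330435 reads, and all 12 held 3329849 to 7330435. The first principal component, with 40.3% of the variance, parted treated from untreated libraries. On it the KO IFNγ libraries stood at -41.2, -44.0 and -29.1 and the WT IFNγ libraries at -55.3, -56.3 and -22.2, while libraries from medium lay at 33.5 to 45.9. Library WT IFNγ C thus stood nearest to the medium libraries among those treated. Values without it are given beside many of the results that it moves, but not beside all of them. The second component, with 11.6%, parted the genotypes, the KO libraries at 13.9 to 32.6 and the WT libraries at -30.3 to -12.4. All 14 markers of microglia and macrophages were measured and none was called between treated genotypes by limma; their summed normalised counts were 11500 to 13600 in KO and 14000 to 14700 in WT libraries. Of 50 markers of other cell types 35 had no read in the 6 treated libraries. Among these were Col1a1, Gfap, Mog, Cd3e, Epcam and Cldn5. The 6 endothelial markers summed to 269 to 410 in KO and 499 to 868 in WT libraries, and their part in the results was not tested. In RNA from whole cultures, fewer cells of a kind and less RNA per cell cannot be told apart.

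With IFNγ, 54 of the 10981 genes differed between KO and WT cells at an adjusted p under 0.05, 0.492% of those tested. In KO cells 31 were lower (0.282%) and 23 were higher (0.209%). The lower genes hold the chemokine Ccl5, the antiviral enzyme Rsad2, the class I heavy chain H2-K1 and the cathepsin Ctsk, besides a set with no or almost no read in KO cells. The higher genes hold the mitotic genes Mki67, Incenp and Cenpk, the lysosomal channel Mcoln3 and the calcium-binding protein S100a6. Absolute differences among the 54 began at 0.82 and had a median of 1.57, while the median over all genes tested was -0.0038. For all 54, the 3 KO values did not overlap the 3 WT values; over all genes KO lay wholly below WT for 9.04% and wholly above it for 7.08%. At an unadjusted p under 0.05 there were 1317 genes, 12.0%.

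The call depended on single libraries for most of these genes. Leaving out each of the 12 libraries in turn, 18 of the 54 were called every time, 12 of them lower and 6 higher in KO cells. The count of calls was 27 without KO IFNγ A, 30 without KO IFNγ C, 24 without WT IFNγ A, 23 without WT IFNγ B, 35 without WT medium B, and it was 83 (0.756%) when WT IFNγ C was left out, with 41 of the 54 among the 83. The voom test on the recovered reads called 82 genes (0.747%), 46 of the 54 among them. For the 54 called genes, a second p beside the adjusted p gives the highest that leaving out 1 library produced and names that library. Where a called gene has none, it was called in all 12. Genes that were not called carry a single adjusted p.

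**Figure D1:**
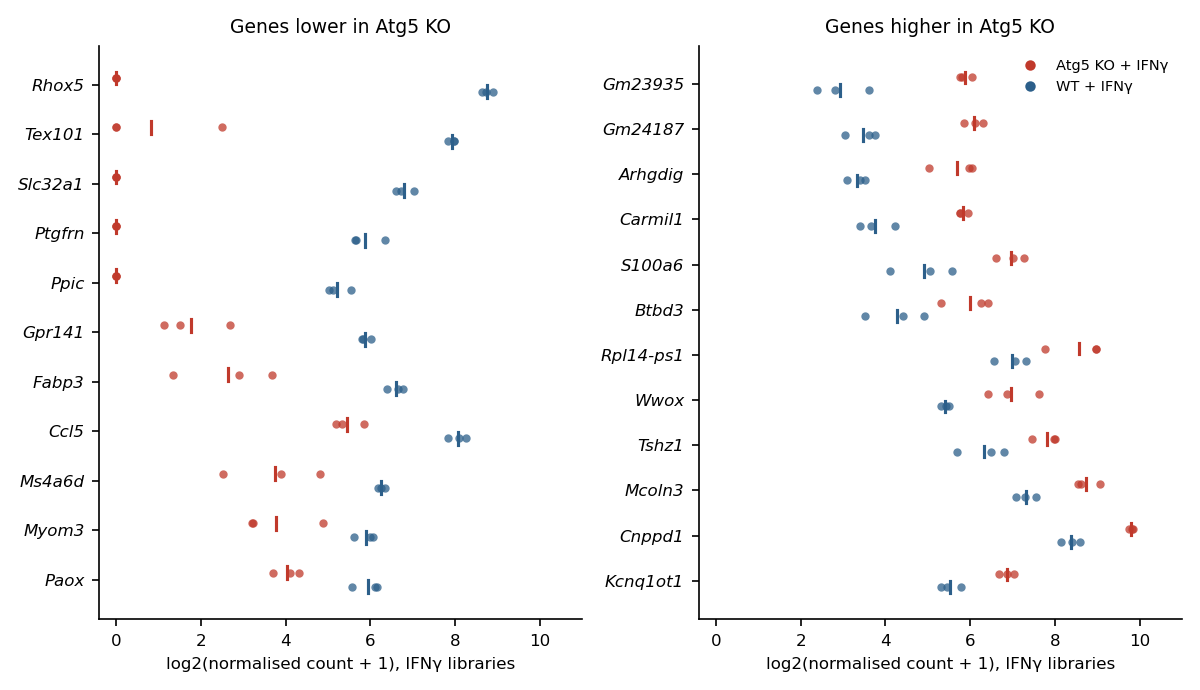
Log2 values of called genes in the 6 IFNγ libraries, those with the largest fall on the left and those with the largest rise on the right among genes averaging 5 or more in the higher group. Points are libraries, KO in red above and WT in blue below on each line, and bars are group means; in no gene do the groups overlap, and Rhox5, Slc32a1, Ptgfrn and Ppic stand at 0 in all 3 KO libraries.

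Several of the largest differences were in genes that WT cells expressed and KO cells did not, and these were alike in medium. Rhox5 (ENSMUSG00000095180, GRCm38 chromosome X, 37804842 to 37808876), an X-linked homeobox factor of the reproductive tract, had no read in KO IFNγ A, B and C, against log2 values of 8.73, 8.64 and 8.90 in WT. It was at least 464-fold lower in KO cells, taking a floor of 3 reads over the KO group. Slc32a1, the vesicular transporter of GABA and glycine, had no KO read and 6.61, 6.73 and 7.03 in WT, at least 119-fold lower. In KO cells Ptgfrn, a membrane partner of the tetraspanins CD9 and CD81, had none either, against 5.64, 5.66 and 6.35, at least 63.8-fold lower. Ppic, the secretory-pathway prolyl isomerase cyclophilin C, had none against 5.53, 5.11 and 5.01, at least 39.2-fold lower. These 4 genes were called with each library left out. Tex101, a surface glycoprotein of sperm cells, stood at 0, 0 and 2.49 in KO and at 7.98, 7.83 and 7.97 in WT libraries (difference -7.09, SE 0.64, adjusted p = 3.02e-06). Abhd6, which hydrolyses the endocannabinoid 2-arachidonoylglycerol, had no KO read and 4.22, 3.97 and 3.56 in WT, at least 15.4-fold lower (adjusted p = 0.0275, or 0.129 without WT IFNγ A). In medium Slc32a1, Ptgfrn, Ppic and Abhd6 also had 0 in all 3 KO libraries, and Rhox5 and Tex101 reached at most 2.39 and 2.55. Whether these genes mark a clone was not tested.

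A second group was low but present in KO cells. Gpr141, an orphan receptor of myeloid cells, stood at 1.13, 1.50 and 2.68 in KO and 5.81, 5.80 and 6.02 in WT libraries (-4.11, SE 0.64, adjusted p = 0.00368). Fabp3, a cytosolic carrier of fatty acids, stood at 3.69, 2.89 and 1.35 in KO and 6.77, 6.66 and 6.39 in WT (-3.96, SE 0.52, adjusted p = 0.000444). Its relative Fabp4, known from adipocytes and macrophages, was far more abundant and fell less, at 7.24, 8.20 and 8.64 in KO and 9.04, 9.40 and 10.08 in WT (-1.48, SE 0.32, adjusted p = 0.0438, or 0.207 without KO IFNγ A). The KO and WT values of both genes lay apart. The 14 complement genes tested had a median of -0.23; C3, the central component, differed by -0.05 (SE 0.44) and C1qa by 0.08 (SE 0.58), or by -0.19 and -0.36 without WT IFNγ C. Tdrd9, a helicase of the germline piRNA pathway, stood at 2.80, 2.48 and 2.49 in KO and 4.71, 4.59 and 5.30 in WT (-2.28, SE 0.41, adjusted p = 0.0113). Paox, which oxidises acetylated polyamines, stood at 4.32, 3.69 and 4.11 in KO and 5.57, 6.12 and 6.14 in WT (-1.90, SE 0.34, adjusted p = 0.0116, or 0.0645 without WT IFNγ B). Myom3, a sarcomeric protein, was lower by 2.12 log2 units (difference -2.12, SE 0.46, adjusted p = 0.0467, or 0.19 without KO IFNγ A).

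Genes of the immune response formed the next group of lower genes. Ccl5 (ENSMUSG00000035042, chromosome 11, 83525778 to 83530518), the chemokine RANTES, which draws T cells and monocytes, stood at 5.33, 5.85 and 5.19 in KO and at 8.10, 8.26 and 7.84 in WT libraries. The difference was -2.61 (SE 0.38, adjusted p = 0.00173). Rsad2 (ENSMUSG00000020641, chromosome 12, 26442746 to 26456452) encodes viperin, an enzyme that makes a chain-terminating nucleotide against viral polymerases. It was abundant in all 6 libraries, at 11.17, 11.49 and 11.28 in KO and 12.91, 13.23 and 13.36 in WT, a difference of -1.85 (SE 0.30, adjusted p = 0.00426). H2-K1 (ENSMUSG00000061232, chromosome 17, 33996017 to 34000347), a classical MHC class I heavy chain, stood at 8.87, 8.87 and 8.78 in KO and 10.80, 10.58 and 10.55 in WT. Its difference of -1.81 (SE 0.21, adjusted p = 0.000136) had the smallest spread of the group. Reads of class I heavy chains can be split among near-identical paralogs by the counting, so the level of H2-K1 is uncertain.

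Ms4a6d, a membrane protein of macrophages, stood at 2.53, 3.88 and 4.81 in KO and 6.35, 6.24 and 6.17 in WT (-2.51, SE 0.47, adjusted p = 0.0192, or 0.089 without WT IFNγ A). Phf11d, a PHD finger gene, stood at 8.80, 8.81 and 8.91 in KO and 9.73, 9.68 and 11.20 in WT (-1.36, SE 0.30, adjusted p = 0.0454, or 0.167 without KO IFNγ A). With WT IFNγ C left out the Phf11d difference was -0.87 and was not called (adjusted p = 0.0731). WT IFNγ C was the highest library for Phf11d and Rsad2 and the lowest of the WT libraries for Ccl5 and Ms4a6d. IFNγ libraries of both genotypes lay above the medium libraries of the same genotype for Ccl5, Rsad2, H2-K1 and Phf11d. In KO cells this did not hold for Ms4a6d, whose medium values of 3.80, 3.64 and 3.54 lay within the range of the IFNγ values.

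**Figure D2:**
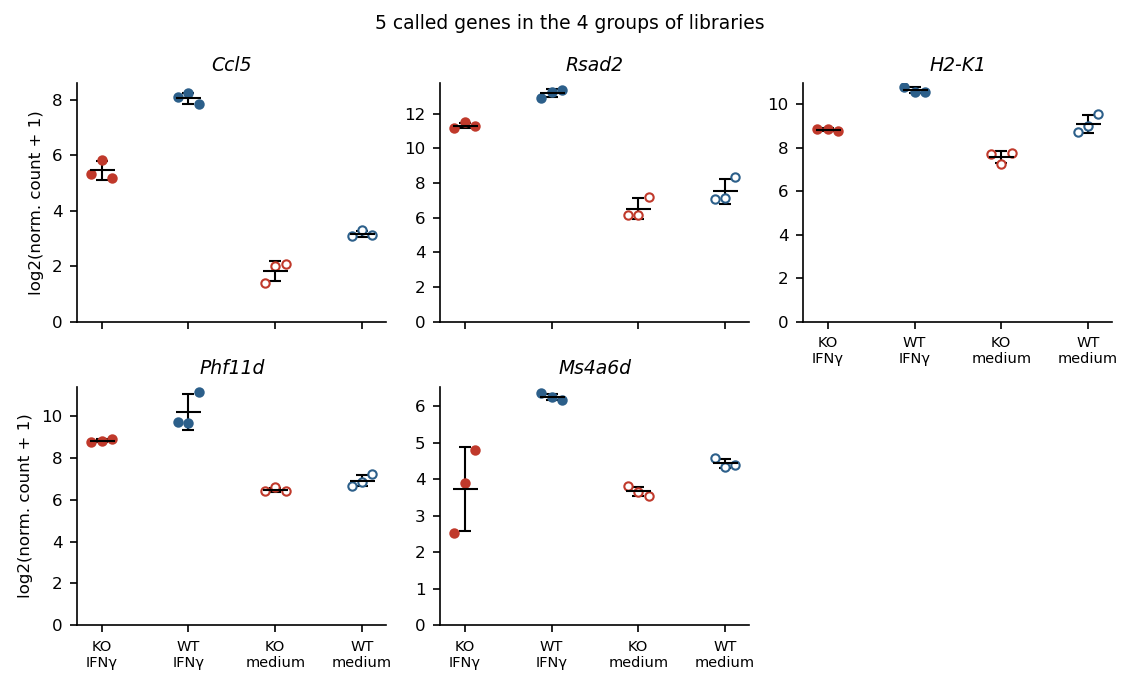
Log2 values of Ccl5, Rsad2, H2-K1, Phf11d and Ms4a6d in the 4 groups; points are libraries (filled with IFNγ, open in medium), long ticks are means and error bars are SD over 3 libraries. With IFNγ every KO library lies below every WT library, as for Ccl5 with 5.19 to 5.85 in KO against 7.84 to 8.26 in WT.

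The promoters of Rsad2 and H2-K1 are shown because both genes fell and the search described below matched a different motif in each. Each line holds the 300 bases from 250 before to 50 after the start of the RefSeq gene on GRCm38.p6, written along the gene's strand; capitals mark the motif found. The Rsad2 window is chr12:26456403-26456702 and the H2-K1 window chr17:34000298-34000597, both on the minus strand.
Rsad2: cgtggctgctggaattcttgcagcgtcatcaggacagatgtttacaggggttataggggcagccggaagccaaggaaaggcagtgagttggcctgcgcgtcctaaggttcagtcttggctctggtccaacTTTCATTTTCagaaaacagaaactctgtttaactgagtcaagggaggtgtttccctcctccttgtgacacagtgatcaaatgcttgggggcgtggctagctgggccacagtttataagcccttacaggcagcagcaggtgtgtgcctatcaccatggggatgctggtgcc
H2-K1: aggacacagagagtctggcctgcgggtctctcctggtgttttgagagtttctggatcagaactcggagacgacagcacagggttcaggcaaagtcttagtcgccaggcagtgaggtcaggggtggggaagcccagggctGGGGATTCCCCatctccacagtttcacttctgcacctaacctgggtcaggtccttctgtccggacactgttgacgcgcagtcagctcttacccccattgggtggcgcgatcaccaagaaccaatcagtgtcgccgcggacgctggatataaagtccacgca
The search used the core of the interferon-stimulated response element (GAAA and GAAA parted by 2 bases), the gamma-activated site (TTCNNNGAA) and the kB site on both strands. The Rsad2 window held 1 response element core on the opposite strand, at -120 to -111 from the start. The H2-K1 window held a pair of overlapping kB matches at -111 to -101 and no match to the response element core. Only these fixed patterns were searched, so looser forms of an element were not counted and may be present. Of 32851 RefSeq promoters of this length 3.44% held the response element core, 8.3% the gamma-activated site and 8.46% the kB site. The core was in 18 of the 35 tested antiviral genes with a promoter in the table (51.4%), and among them in 13 of the 23 whose KO values all lay below WT (56.5%) and in 5 of the other 12 (41.7%). Among the tested guanylate-binding proteins and immunity-related GTPases it was in 12 of 14 (85.7%). In 38 called genes with an entry it occurred once, in Rsad2. The Phf11d window matched none of the motifs searched and is not shown. These matches describe letters in a window and say nothing of binding.

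Antiviral effectors had mostly negative estimates in KO cells with IFNγ, and Rsad2 was the 1 member called in that comparison. Of 53 antiviral effectors 49 could be tested, and Ifitm1, Ifi44l, Ifih1 and Trim30a were under the filter. The list median was -0.81 and 47 of 49 estimates were negative. KO lay wholly below WT for 29 of 49 (59.2%, against 9.04% of all genes) and wholly above it for 0. In medium, KO lay wholly below WT for 3 of the 49 (7.37% of all genes) and the list median was -0.28. The list mean was 4.09 to 5.17 in the medium libraries, against 6.92 to 8.13 with IFNγ. Members with few reads in medium had little room to lie apart there, so these counts do not compare like with like. With IFNγ, 20 had an unadjusted p under 0.05, all lower (5.87% of all genes), and voom called 13, again all lower (0.501% of all genes). Without WT IFNγ C the median was -0.99 and limma called 3, Rsad2, Herc6 and Ifit2. In that fit Herc6, a ligase that attaches ISG15, differed by -1.84 and Ifit2, which binds viral RNA, by -1.45. Without both IFNγ libraries of letter C the median was -0.92 and 0 were called, with Rsad2 at -1.74 (adjusted p = 0.0868).

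Values of single members show how far the libraries stood apart. Ifit3, a partner of IFIT1 on viral RNA, stood at 5.05, 5.85 and 5.06 in KO and 7.98, 7.63 and 7.65 in WT (-2.43, SE 0.63, adjusted p = 0.10, voom adjusted p = 0.000283). Isg20, an exonuclease, stood at 5.89, 6.14 and 5.74 in KO and 8.19, 8.00 and 7.29 in WT (-1.90, SE 0.50). Isg15, the ubiquitin-like modifier, stood at 6.99, 7.31 and 6.43 in KO and 8.99, 9.32 and 7.90 in WT (-1.83, SE 0.60), with WT IFNγ C again the lowest of the WT libraries. Usp18, which removes ISG15 and damps interferon receptor signalling, stood at 7.30, 7.74 and 7.41 in KO and 8.37, 8.78 and 8.17 in WT (-0.95, SE 0.34). In medium Usp18 was called lower in KO cells, with a larger estimate of -1.96 (SE 0.34, adjusted p = 0.00731). Ifitm3 also had a larger estimate in medium (-1.55) than with IFNγ (-1.03), and so did Oas2 (-1.82 and -1.52). Of the 29 members whose KO values all lay below WT with IFNγ, 24 had a smaller estimate in medium. Among the oligoadenylate synthetases, which activate RNase L, Oas2 differed by -1.52 (SE 0.53), Oasl2 by -1.72 (SE 0.55) and Oas3 by -1.22 (SE 0.48). The kinase Eif2ak2, which halts translation, differed by -0.09 (SE 0.28) and the mono-ADP-ribosyltransferase Parp14 by 0.31 (SE 0.45), or by -0.03 and -0.08 without WT IFNγ C; neither was called. Paralogs in these families, such as Ifit3 and Ifit3b or the Oas1 genes, can share reads.

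The core IFNγ pathway gave no call. Of 21 genes for the receptors, JAKs, STATs, IRFs and their feedback, limma called 0 and voom called Irf7 alone. An unadjusted p under 0.05 was reached by 4, and by 12.0% of all genes. The list median was -0.07, and -0.25 without WT IFNγ C. Ifngr1, a chain of the IFNγ receptor, stood at 7.31, 7.005 and 6.93 in KO and 7.17, 6.45 and 7.79 in WT (-0.05, SE 0.34, adjusted p = 0.977). Irf1, the first-wave transcription factor, stood at 11.22, 11.02 and 9.86 in KO and 11.22, 11.07 and 8.93 in WT (0.29, SE 0.45, adjusted p = 0.853). In these genes the genotypes overlapped, and both C libraries were low for Irf1. Irf7, which drives type I interferon genes, stood at 7.96, 8.08 and 7.47 in KO and 9.50, 9.54 and 9.31 in WT (-1.61, SE 0.46, adjusted p = 0.135, voom adjusted p = 0.000967). For Stat2, a component of ISGF3, the difference was -0.91 (SE 0.37), and for Irf9 it was -0.03 (SE 0.30). Without WT IFNγ C the differences were 0.28 for Ifngr1, -0.45 for Irf1 and 0.22 for Irf9, none of them called.

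Guanylate-binding proteins and immunity-related GTPases, which attack pathogen vacuoles, had family medians whose sign turned when WT IFNγ C alone was left out. Neither family had a call, a gene at an unadjusted p under 0.05 or a voom call among 7 and 15 tested. Gbp2 stood at 13.05, 12.72 and 11.93 in KO and 12.52, 12.70 and 10.18 in WT (0.77, SE 0.85, adjusted p = 0.771, and -0.04 without WT IFNγ C). Iigp1, an effector GTPase, stood at 12.16, 11.47 and 10.70 in KO and 11.47, 11.66 and 9.03 in WT (0.72, SE 0.80, and -0.12 without WT IFNγ C), so that WT IFNγ C was the lowest library for both. The family medians were 0.75 and 0.38, and without WT IFNγ C they were -0.05 and -0.29. Without both IFNγ libraries of letter C they were 0.24 and 0.0054. The list of MHC class II and its activator Ciita also turned sign without WT IFNγ C, with 0 of 10 called by limma or voom and 0 at an unadjusted p under 0.05. The median of that list was 0.09, -0.59 without WT IFNγ C and -0.10 without both IFNγ libraries of letter C. Ciita stood at 4.88, 6.16 and 4.11 in KO and 6.54, 6.72 and 0 in WT (0.63, SE 1.24, and -1.57 without WT IFNγ C). The direction of these 3 lists therefore depends on which libraries are left out. Nos2, the inducible nitric oxide synthase, stood at 5.60, 5.13 and 3.82 in KO and 5.53, 4.46 and 0 in WT (1.52, SE 1.097, adjusted p = 0.621, and -0.15 without WT IFNγ C). Acod1, the enzyme that makes itaconate, stood at 12.93, 12.97 and 12.49 in KO and 13.45, 13.67 and 12.01 in WT (-0.25, SE 0.37, adjusted p = 0.843, and -0.76 without WT IFNγ C).

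**Figure D3:**
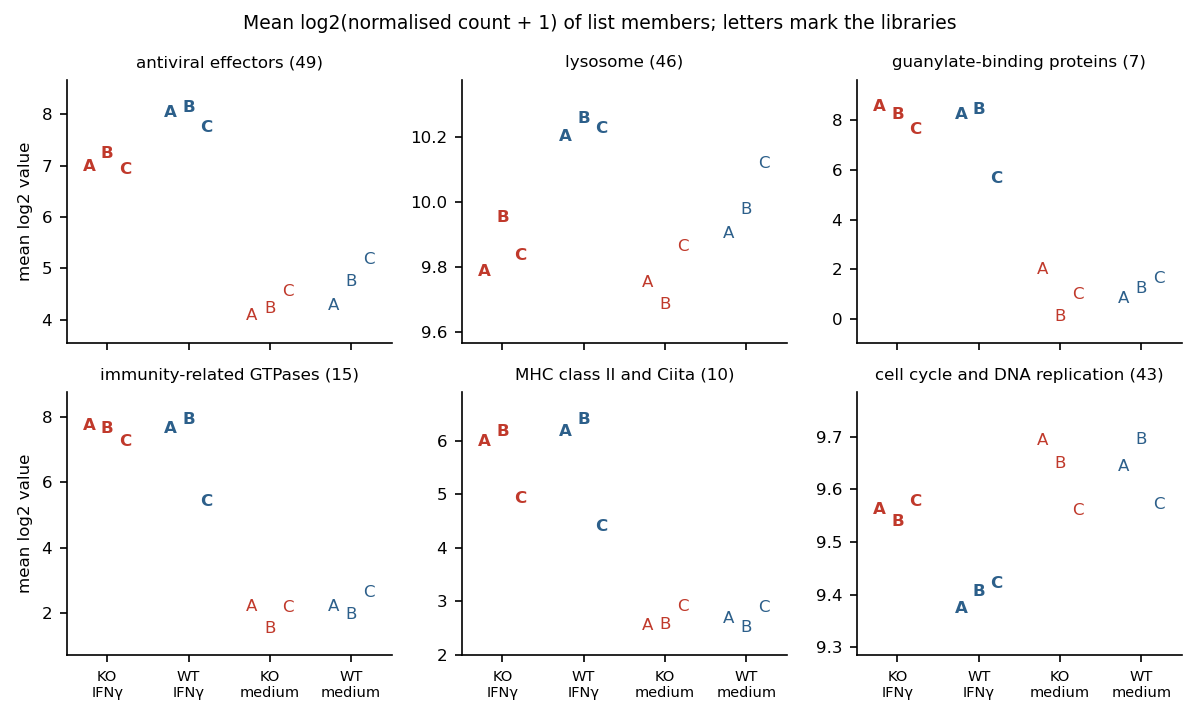
Mean log2 value of the tested members of 6 gene lists in each library, KO left of WT with IFNγ and then in medium, with letters for the libraries and the number of members in brackets; the axes differ and do not start at 0. The antiviral mean is 6.92 to 7.24 in KO against 7.74 to 8.13 in WT with IFNγ, and for the guanylate-binding proteins WT IFNγ C lies at 5.67 while the other treated libraries lie at 7.62 to 8.56.

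In the MHC class I list, which also holds the peptide transporter and immunoproteasome, H2-K1 was the 1 called of 22. B2m, the light chain, stood at 13.23, 13.69 and 13.28 in KO and 14.19, 14.19 and 13.45 in WT (-0.54, SE 0.23, adjusted p = 0.34). H2-D1, the other classical heavy chain, stood at 11.51, 11.77 and 11.38 in KO and 12.10, 12.05 and 11.70 in WT (-0.40, SE 0.19, adjusted p = 0.40), with KO IFNγ B above WT IFNγ C. The list median was -0.27 and the peptide transporter Tap1 differed by -0.33 (SE 0.40). Without WT IFNγ C that median was -0.49 and the Tap1 difference -0.71, which was not called.

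Among 13 chemokines tested Ccl5 was the 1 called. Ccl4, an attractant of monocytes and T cells, stood at 8.25, 8.48 and 8.24 in KO and 9.40, 9.31 and 8.91 in WT (-0.89, SE 0.27, adjusted p = 0.17). Ccl7 stood at 3.39, 4.58 and 4.11 in KO and 5.45, 6.07 and 6.82 in WT (-2.09, SE 0.71, adjusted p = 0.22). Neither passed, although the groups did not overlap. Cxcl9 and Cxcl10, ligands of CXCR3 on T cells, overlapped between genotypes. Cxcl9 stood at 10.78, 10.10 and 9.33 in KO and 11.32, 10.96 and 8.61 in WT (-0.22, SE 0.66, adjusted p = 0.934), and Cxcl10 at 9.86, 9.31 and 7.73 in KO and 10.52, 10.48 and 7.80 in WT (-0.63, SE 0.66, adjusted p = 0.757). Without WT IFNγ C, Cxcl10 differed by -1.54 and Cxcl9 by -1.07, neither called.

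The autophagy genes themselves gave no call. Atg5 (ENSMUSG00000038160, chromosome 10, 44268358 to 44364291) stood at 8.83, 8.74 and 8.77 in KO and 8.92, 8.86 and 8.96 in WT (-0.13, SE 0.17, adjusted p = 0.817). Reads from a 3′ end need not cross an edited site, so this does not check the genotype labels. Of the 16 genes of the conjugation system neither limma nor voom called any, and the list median was -0.15. An unadjusted p under 0.05 was reached by 4 of them, and by 12.0% of all genes. Map1lc3a, an LC3 gene, stood at 4.49, 5.49 and 5.06 in KO and 6.21, 6.58 and 6.28 in WT (-1.34, SE 0.31, adjusted p = 0.0601). Map1lc3b, the LC3 gene used to follow autophagosomes, stood at 9.53, 9.59 and 9.46 in KO and 10.03, 10.11 and 9.94 in WT (-0.50, SE 0.18, adjusted p = 0.239); in both genes KO lay below WT in all libraries. Sqstm1, the cargo receptor p62, whose protein is cleared by autophagy, stood at 10.20, 10.29 and 10.51 in KO and 10.52, 10.55 and 10.81 in WT (-0.29, SE 0.20, adjusted p = 0.602). Of 14 cargo receptors and 31 genes of initiation and fusion limma and voom called 0. In these lists 1 and 5 had an unadjusted p under 0.05, against 12.0% of all genes.

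Transcripts of the lysosome list had mostly negative estimates in KO cells, with 1 call. The list does not hold the channel gene Mcoln3, which was called higher (1.43, SE 0.24). Ctsk, cathepsin K, a collagen-degrading protease, stood at 8.55, 9.16 and 9.69 in KO and 10.30, 10.03 and 10.99 in WT (-1.31, SE 0.28, adjusted p = 0.0454, or 0.223 without KO IFNγ A). Its difference was -1.03 when WT IFNγ C was left out (adjusted p = 0.102). The list median was -0.35 over 46 genes, 42 estimates were negative, and KO lay wholly below WT for 19 (41.3%, against 9.04% of all genes). In medium the median was -0.15 and 13 of 46 lay wholly below, against 7.37% of all genes in medium. At an unadjusted p under 0.05 there were 17, all lower (5.87% of all genes), and voom called 1, again Ctsk. Ctsd, cathepsin D, stood at 11.22, 11.56 and 11.82 in KO and 12.03, 12.05 and 12.63 in WT (-0.71, SE 0.20, adjusted p = 0.14). Npc2, which carries cholesterol out of the lysosome, stood at 11.68, 11.88 and 11.47 in KO and 12.47, 12.40 and 12.11 in WT (-0.65, SE 0.19, adjusted p = 0.14). Tfeb and Mitf, transcription factors of lysosomal genes, differed by 0.03 (SE 0.32) and 0.00 (SE 0.25), or by -0.05 and 0.09 without WT IFNγ C. Without WT IFNγ C the list median was -0.34 and 0 were called.

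Genes of cell death and of TNF and NF-kB signalling gave no call among 37 and 30 tested, by limma or voom. In these lists 6 and 1 had an unadjusted p under 0.05, against 12.0% of all genes. Tnf stood at 7.87, 8.25 and 6.89 in KO and 7.91, 7.75 and 6.59 in WT (0.25, SE 0.35, adjusted p = 0.83). Its receptor Tnfrsf1a stood at 8.56, 8.52 and 8.08 in KO and 8.83, 8.67 and 8.19 in WT (-0.18, SE 0.20, adjusted p = 0.783). Casp8, the initiator caspase of death receptors, differed by 0.05 (SE 0.22, adjusted p = 0.958) and Mlkl, the executor of necroptosis, by -0.19 (SE 0.29, adjusted p = 0.853). The differences were -0.16 for Tnf, -0.36 for Tnfrsf1a, -0.0008 for Casp8 and -0.38 for Mlkl when WT IFNγ C was left out, none of them called. Ripk3, the kinase that activates MLKL, had no read in the 6 treated libraries and 1 read in WT medium B.

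Other lower genes serve lipid, hormone and cytoskeletal functions. Plpp3, a phosphatase of lysophosphatidic acid, stood at 6.20, 5.63 and 6.82 in KO and 8.01, 8.25 and 7.89 in WT (-1.83, SE 0.30, adjusted p = 0.00477). Tsc22d3, the glucocorticoid-induced leucine zipper, fell by 1.53 (SE 0.30, adjusted p = 0.0253, or 0.0882 without KO IFNγ A). Rhou, an atypical small GTPase, stood at 6.79, 7.16 and 7.04 in KO and 8.77, 8.19 and 8.07 in WT (-1.35, SE 0.29, adjusted p = 0.0384, or 0.19 without WT IFNγ A). Cd81, a tetraspanin, fell by 1.26 (SE 0.27, adjusted p = 0.0384, or 0.167 without KO IFNγ A). The other 7 lower genes had differences of -1.21 to -0.82, and each lost its call without some library (highest adjusted p 0.129 to 0.188). They were Mzt1 (gamma-tubulin recruitment), Ush1c (the scaffold harmonin), Ddah1 (breakdown of a nitric oxide synthase inhibitor), Gyg (the primer of glycogen), Gatm (creatine synthesis), Marcks (an actin-linking kinase substrate) and Fblim1 (a filamin-binding adaptor).

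Among the higher genes 6 were called with every library left out. S100a6, a small calcium-binding protein, stood at 6.62, 7.27 and 7.01 in KO and 4.12, 5.56 and 5.06 in WT (2.05, SE 0.33, adjusted p = 0.00417). Cnppd1, a cyclin-domain protein, stood at 9.81, 9.84 and 9.75 in KO and 8.42, 8.60 and 8.15 in WT (1.41, SE 0.18, adjusted p = 0.000312). Mcoln3, the endolysosomal cation channel TRPML3, stood at 9.06, 8.54 and 8.63 in KO and 7.55, 7.08 and 7.30 in WT (1.43, SE 0.24, adjusted p = 0.00477). For these 3 genes the lowest KO library lay above the highest WT library. Incenp, which anchors Aurora B in the chromosomal passenger complex, stood at 11.20, 10.80 and 11.41 in KO and 9.49, 9.81 and 10.20 in WT (1.31, SE 0.21, adjusted p = 0.00477). Gm23935 (chromosome 16, 11144125 to 11144181) and Gm24187 (chromosome 13, 9834469 to 9834525) are loci of 57 bases that GENCODE M21 annotates as miRNA. Gm23935 stood at 5.77, 5.81 and 6.04 in KO and 3.62, 2.38 and 2.81 in WT (2.94, SE 0.43, adjusted p = 0.00179), and Gm24187 at 5.86, 6.11 and 6.30 in KO and 3.62, 3.77 and 3.04 in WT (2.61, SE 0.40, adjusted p = 0.00313). Gm23935 lies within Zc3h7a on the opposite strand, and the sources used here do not say whether counting used the strand, so its reads cannot be assigned with certainty.

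Mki67, the Ki-67 antigen of cycling cells, stood at 10.34, 9.63 and 10.62 in KO and 8.33, 8.84 and 9.49 in WT (1.31, SE 0.28, adjusted p = 0.0384, or 0.185 without KO IFNγ C). Cenpk, a kinetochore protein, stood at 8.52, 8.35 and 8.87 in KO and 7.39, 7.72 and 7.59 in WT (1.01, SE 0.22, adjusted p = 0.0467, or 0.209 without KO IFNγ C). In the cell cycle list, which does not hold Incenp and Cenpk, Mki67 was the 1 called of 43 and the median was 0.12. KO lay wholly above WT for 8 of 43 (18.6%, against 7.08% of all genes) and wholly below it for 1. Kif11, the spindle motor, stood at 10.09, 9.56 and 9.99 in KO and 8.87, 9.003 and 9.29 in WT (0.83, SE 0.18, adjusted p = 0.0514). Ccnb1, Plk1 and Pcna, other genes of proliferating cells, differed by 0.17 (SE 0.20), 0.16 (SE 0.18) and -0.20 (SE 0.18), or by 0.05, 0.07 and -0.41 without WT IFNγ C. In that fit the list median was 0.07 and limma called 2 of the list, Mki67 and Kif11.

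The remaining higher genes were of mixed function. Arhgdig, a GDP-dissociation inhibitor of small GTPases, stood at 5.97, 6.05 and 5.03 in KO and 3.09, 3.53 and 3.41 in WT (2.34, SE 0.41, adjusted p = 0.00896, or 0.0774 without KO IFNγ A). Carmil1, which regulates actin capping protein, rose by 2.07 (SE 0.45, adjusted p = 0.0438, or 0.164 without KO IFNγ A). Hnrnph1, a splicing factor, stood at 11.45, 10.26 and 11.15 in KO and 9.70, 9.85 and 9.84 in WT (1.16, SE 0.24, adjusted p = 0.0367, or 0.188 without KO IFNγ A). Elovl6, which lengthens palmitate, rose by 1.095 (SE 0.24, adjusted p = 0.0438, or 0.189 without WT IFNγ A) and was the 1 called of 30 genes of cholesterol and fatty acid synthesis. Abcc1, an exporter of glutathione conjugates, rose by 1.14 (SE 0.23, adjusted p = 0.0304, or 0.153 without KO IFNγ C). Sprtn, a protease for DNA-protein crosslinks, had 58 reads over the KO and 1 over the WT libraries, a ratio of 46.4 (95% counting interval 8.0 to 1860; adjusted p = 0.025, or 0.144 without KO IFNγ A). Zfp808, a zinc finger gene, had 47 reads over the KO and 2 over the WT libraries, a ratio of 18.8 (4.92 to 160.0; adjusted p = 0.0488, or 0.228 without KO IFNγ A). The other 8 were Btbd3, the pseudogene Rpl14-ps1, Wwox, Tshz1, Sfmbt2, Kcnq1ot1, Ermp1 and Zc3h12c, which rose by 1.09 to 1.71 and each lost its call without some library (highest adjusted p 0.0982 to 0.219). Kcnq1ot1 lies antisense within Kcnq1 and is a nuclear RNA of an imprinted region. It stood at 6.88, 6.68 and 7.04 in KO and 5.45, 5.32 and 5.78 in WT (1.35, SE 0.28, adjusted p = 0.0308, or 0.129 without KO IFNγ C). Of 6 nuclear-retained RNAs tested it was the 1 called; their mean log2 value was 8.35, 8.35 and 8.15 in KO and 7.69, 7.70 and 7.73 in WT. RNA was taken after nuclei had been spun out, and the part of nuclear carry-over in these values was not tested.

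**Figure D4:**
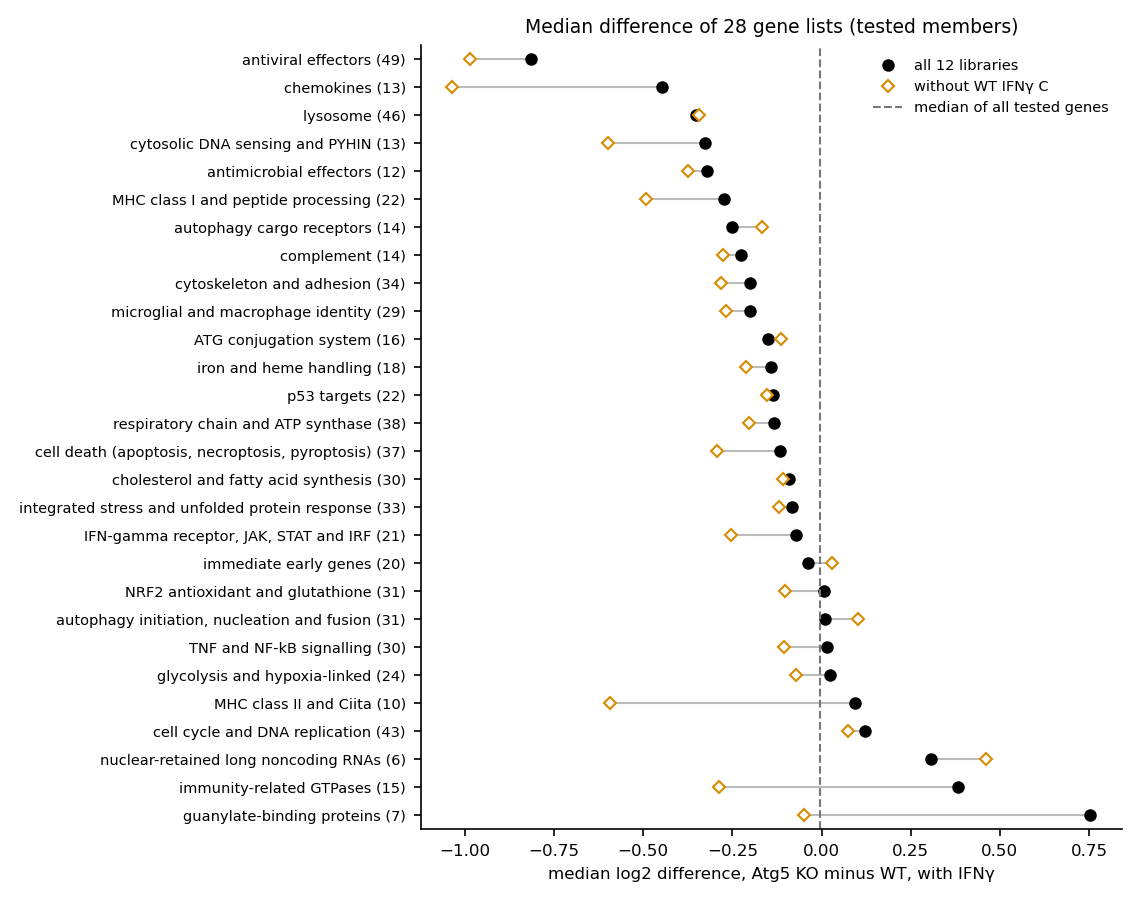
Median KO minus WT difference with IFNγ of the tested members of 28 gene lists (number in brackets); filled points use all 12 libraries, open diamonds leave out WT IFNγ C, and the dashed line is the median of all tested genes at -0.0038. The antiviral median is -0.81 and -0.99 without WT IFNγ C, while the medians of guanylate-binding proteins, immunity-related GTPases and MHC class II change sign.

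Of the 28 lists 9 had a called member and 19 had none. Of 34 cytoskeletal and adhesion genes S100a6 was the 1 called, and KO lay wholly below WT for 10 (29.4%, against 9.04% of all genes); vimentin (Vim) stood at 12.14, 12.30 and 12.29 in KO and 13.06, 12.80 and 12.72 in WT (-0.62, SE 0.20, adjusted p = 0.18). The 13 tested genes of cytosolic DNA sensing, among them the PYHIN family, had a median of -0.33 (-0.60 without WT IFNγ C), 0 calls by limma and voom and 4 at an unadjusted p under 0.05. Ifi204 of that family stood at 10.11, 10.24 and 10.20 in KO and 11.002, 11.24 and 10.82 in WT (-0.84, SE 0.23, adjusted p = 0.13). Of 29 microglial identity genes limma and voom called 0, with 7 at an unadjusted p under 0.05; Apoe stood at 10.54, 10.43 and 10.55 in KO and 11.22, 10.94 and 12.05 in WT (-0.89, SE 0.23, adjusted p = 0.095, and -0.57 without WT IFNγ C). The lists of NRF2 targets, stress response, p53 targets, glycolysis, respiratory chain, iron handling, antimicrobial effectors and immediate early genes had no call by limma or voom. Their counts at an unadjusted p under 0.05 were 6 of 31, 1 of 33, 2 of 22, 1 of 24, 2 of 38, 1 of 18, 2 of 12 and 3 of 20. Over all genes 12.0% had such a p, the share to set beside the DNA sensing and microglial counts as well.

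The same genotypes in medium, which share no library with the treated ones, gave 47 calls, 0.428% of genes tested. Of these 13 were higher (0.118%) and 34 lower (0.31%) in KO cells. Both comparisons took the spread of each gene from the same fit over all 12 libraries, so their calls are not independent. In both comparisons 15 genes were called, 12 lower and 3 higher, each in the same direction, which is 27.8% of the calls with IFNγ and 31.9% of those in medium. Among the lower genes were Rhox5, Tex101, Slc32a1, Ptgfrn, Ppic, Gpr141, Fabp3, Abhd6, H2-K1 and Ush1c, and the 3 higher were S100a6, Cnppd1 and Arhgdig. H2-K1 differed by -1.81 (SE 0.21) with IFNγ and by -1.52 (SE 0.21) in medium, and Cnppd1 by 1.41 (SE 0.18) and 1.40 (SE 0.18). Of the 54 genes 49 had an estimate of the same sign in medium (90.7%, against 53.4% of all genes).

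For the 39 genes not called in medium the estimate was larger with IFNγ, the comparison by which they were chosen. Ccl5 differed by -2.61 (SE 0.38) with IFNγ and -1.34 (SE 0.38) in medium, Rsad2 by -1.85 and -1.01 (SE 0.30 each) and Phf11d by -1.36 and -0.43 (SE 0.30 each). Mki67 differed by 1.31 with IFNγ and by -0.79 in medium (SE 0.28 each), and Hnrnph1 by 1.16 and -0.66 (SE 0.24 each). The test of the difference between both genotype differences called 0 genes over all 10981 by limma and 0 by voom, with 792 at an unadjusted p under 0.05 (7.21%). Among the 54 the lowest adjusted p of that test was 0.106, for Hnrnph1 and Mki67, so none of the 54 was shown to differ more in treated than in untreated cells. Without KO IFNγ B that test called Hnrnph1 (adjusted p = 0.00428) and Mki67 (adjusted p = 0.0303), and without WT IFNγ C it called Mki67 (adjusted p = 0.031). Outside the 54, leaving out KO medium B made that test call C1qa (adjusted p = 0.0351).

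**Figure D5:**
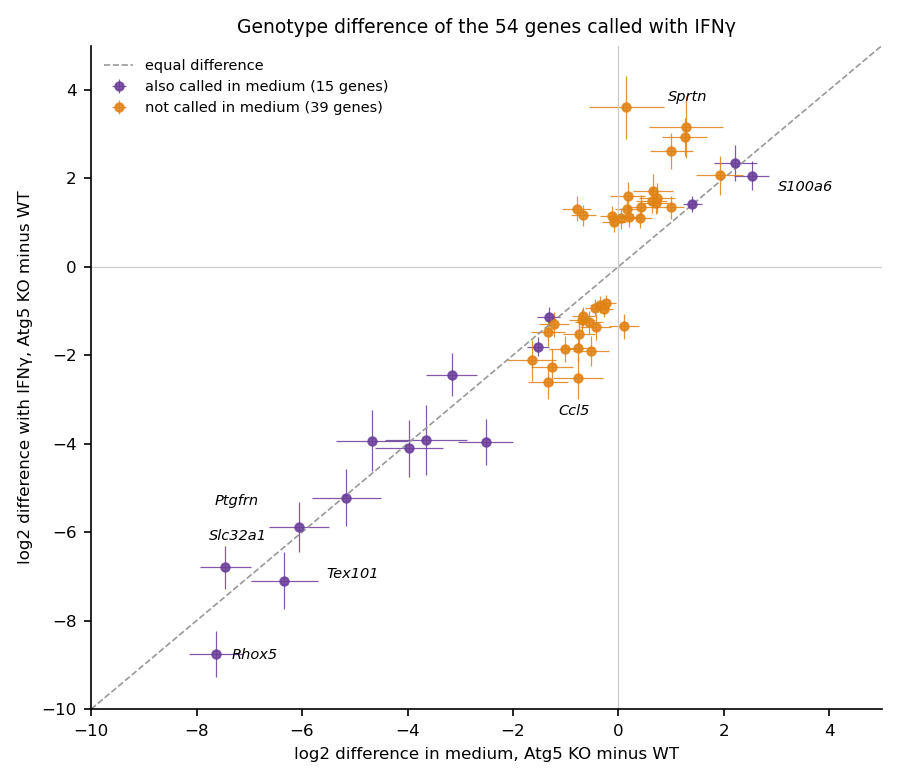
KO minus WT log2 difference with IFNγ (vertical) against that in medium (horizontal) for the 54 genes called with IFNγ, with SE bars; the dashed line marks equal differences. The 15 genes also called in medium have the same sign on both axes, and the 39 others lie further from 0 on the vertical axis than on the horizontal one.

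Of the 54 genes chromosome 3 held 8 of 566 tested genes (1.41%), chromosome 7 held 7 of 757 and chromosome 13 held 5 of 416, and 0 lay on chromosomes 5, 6 and 15. Cd81, lower in KO cells, lies 135.5 kb from Kcnq1ot1, higher in KO cells, on chromosome 7, and Ddah1, lower, lies 223.2 kb from Mcoln3, higher, on chromosome 3. No other annotated gene overlaps 29 of the 54, and for the rest the assignment of reads is uncertain.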

How the data were processed

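Cytosolic polyadenylated RNA of 12 BV2 libraries was primed with barcoded oligo-dT and sequenced, per the labels' protocols. The deposited values are log2 of counts that the authors had normalised, plus a pseudocount of 1; 100% of them return whole reads to within 0.01 of a read. The submitters' processing notes name FastQC 0.11.2, STAR, HTSeq 0.6.1, DESeq2 1.10.1 and GRCm38, without roles. Genes that reached 3 on the log2 scale in 3 or more libraries were kept.

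One mean per group was fitted over the 12 libraries with limma 3.58.1 in R 4.3.3 (8 residual degrees of freedom, variance trend), with two-sided tests and Benjamini-Hochberg adjustment over all 10981 genes. The test was checked on simulated data with independent libraries and no outlying library, so the check does not cover a library such as WT IFNγ C. All adjusted p-values are from this fit unless voom is named. Where a group had no read, folds use a floor of 3 reads over the group; floors and 95% intervals cover counting error only. With 3 libraries a group, p-values measure the spread between these libraries. Differences on this scale understate the change of weakly expressed genes.

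The text names the 12 called genes with the largest difference in each direction (higher group averaging 5 or more, no overlap), up to 3 called genes a list and a set of pathway genes. The other 24 called genes, and list members that were not called, were chosen after their values were seen. Members and lists were chosen with earlier results of these data known. Positions are from GENCODE M21 (GRCm38) and promoters from RefSeq. Alternatives covered the filter, pseudocount, centring, trend, voom, a replicate block, the treated libraries alone and leaving out libraries. Some genes that this rule selects are not reported here.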

Additional observations from a re-analysis of the deposited data

How the results depend on the processing

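The count of genes called with IFNγ, 54 in the fit reported, was 32 without a filter, 29 with the 6 treated libraries alone, 86 with a pseudocount of 8, 82 with voom, 18 without both IFNγ libraries of letter C, and 23 to 83 when 1 library was left out. Of the 54, 46 were called by voom, 41 without WT IFNγ C, 28 without a filter and 18 with the treated libraries alone. The 8 not called by voom were Tdrd9, Myom3, Wwox, Btbd3, Arhgdig, Zfp808, Sprtn and Cd81. In medium the count was 47, 30 with voom and 24 to 57 with 1 library left out. Samples were not paired by letter, since the labels call each replicate an independent preparation. The correlation of same-letter deviations between the treated groups was 0.0119 to 0.2192, against -0.2087 to 0.1594 for other letters. Whether libraries of a letter share an effect was not tested. A replicate block gave 89 calls with IFNγ, all 54 among them, and 1 call (Myh10) in the test of the difference between genotype differences. That test gave 0 calls in the fit reported and 0 to 3 with 1 library left out. Leaving out the untreated libraries for the IFNγ comparison, and the treated ones for medium, was added after seeing the data.

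Uncalled genes turned direction when libraries were left out, and the cause was not tested. With 1 library left out the difference ran from -0.1611 to 0.6463 for Tnf, -0.0939 to 0.2629 for Casp8, -0.4081 to 0.0689 for Mlkl, -0.40 to 0.28 for Ifngr1, -0.45 to 0.71 for Irf1, -1.07 to 0.29 for Cxcl9, -0.0402 to 1.2183 for Gbp2, -0.15 to 2.62 for Nos2 and -0.7602 to 0.0658 for Acod1. Without both IFNγ libraries of letter C it was -0.15 for Casp8, 0.35 for Ifngr1 and -0.0254 for Irf1. Depth limits genes with few reads, such as Sprtn and Zfp808.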
